A study of Bos taurus with 6 samples.

Results

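The LINC complex and the nuclear lamina were examined in bovine cumulus cells through 9 genes: the nesprins SYNE1 and SYNE2, the SUN proteins SUN1 and SUN2, the lamins LMNA, LMNB1 and LMNB2, emerin (EMD) and the lamin B receptor LBR. Members were all probes that the array's annotation names for these genes, which gave 13 of the 43794 bovine probes and 8 of 15216 named genes. No probe carried the name SUN1. The group was chosen by the measured log2 ratio of rFSH over control of SYNE2, among the lowest on these same arrays, so the ratios of the members are given as a description. Of the 13 probes, 12 were bright enough to be tested, and LMNB2 was the gene left out.

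Cumulus cells are the somatic cells around the oocyte, here from cumulus-oocyte complexes of Holstein cows, matured in vitro. One group received recombinant follicle-stimulating hormone (rFSH, 0.5 µg/mL). Control cells were cultured without it, and estradiol at 1 µg/mL was present throughout. Amplified RNA of both groups was hybridised together on 6 arrays in 2 colours, from 3 biological replicates numbered 2, 3 and 4, each run in both dye orientations. Ovaries came from a slaughterhouse, and the labels tie no replicate to an animal. A label puts the control at 6 h of culture, whereas the protocol states 22 to 24 h with no distinction between groups, so whether culture times matched was not settled.

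SYNE2 and SYNE1 encode giant spectrin repeat proteins of the outer nuclear membrane. Their KASH domain reaches into the space between both nuclear membranes and binds SUN proteins of the inner membrane, and the SUN proteins contact the lamina. This chain is the LINC complex, the linker of nucleoskeleton and cytoskeleton: it carries pull from actin and microtubules to the nucleus and positions it. The lamins form the filament mesh under the inner membrane, where emerin and LBR, both membrane proteins, hold lamins and chromatin.

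The arrays differed in quality. The share of bovine probes brighter than the negative controls ran from 38.2% to 83.3%, lowest for control RNA on the replicate 2 array with rFSH in Cy3. Turned log2 ratios, taken as rFSH over control on every array, correlated across probes at 0.722 and 0.707 between the dye-swapped arrays of replicates 3 and 4 and at 0.494 between those of replicate 2. Arrays of different replicates correlated at 0.563 to 0.739 in the same dye orientation and at 0.340 to 0.548 in opposite orientations. Ratios thus differed with dye orientation on all arrays, not on those of replicate 2 alone. Probes are not independent replicates. Member ratios that the replicate 2 array with rFSH in Cy3 moved most are given below with and without it.

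All 3 SYNE2 probes were lower with rFSH on all 6 arrays. SYNE2 encodes nesprin-2. The brightest, EMBV3_23880, had a mean log2 ratio of -3.18 ± 0.78 (SD, n = 3), which is 9.03-fold lower. Probe EMBV3_24648 had -2.76 ± 0.19 and was 6.75-fold lower, and EMBV3_06276 had -2.33 ± 0.52 and was 5.05-fold lower. Among the 34821 tested probes, ordered from the lowest ratio, the 3 ranked 6, 17 and 40. In bulk RNA, fewer cells that carry SYNE2 transcripts and less SYNE2 transcript per cell cannot be told apart.

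The channel intensities behind these ratios, normalized within and between arrays, separated completely. For EMBV3_23880 the rFSH channel read 4082 and 5131 in replicate 2, 2999 and 2129 in replicate 3 and 2859 and 2182 in replicate 4, with rFSH in Cy5 given before Cy3. The control channel of those arrays read 22513 and 21837, 31913 and 32119, and 27876 and 32236 in the same order. The lowest control reading was thus above 4 times the highest rFSH reading, and both replicate 2 arrays had the highest rFSH and the lowest control values. Its raw control signal reached up to 83.4% of the brightest bovine probe on the same array and channel, and 2.55% of tested probes were brighter on average.

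The other SYNE2 probes were dimmer. For EMBV3_24648 the rFSH readings, in the order above, were 464 and 416, 274 and 264, and 378 and 268, against control readings of 1969 and 5327, 1627 and 1508, and 2155 and 2414. The 5327 came from the replicate 2 array with rFSH in Cy3 and stood far above the other control values. For EMBV3_06276 the rFSH readings were 258 and 191, 162 and 155, and 125 and 108, against control readings of 829 and 678, 1063 and 1090, and 724 and 585. Neither pair of ranges overlapped. With rFSH, EMBV3_06276 exceeded the negative controls on 5 of 6 arrays, so its lower channel sits near the floor of the measurement.

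**Figure D1:**
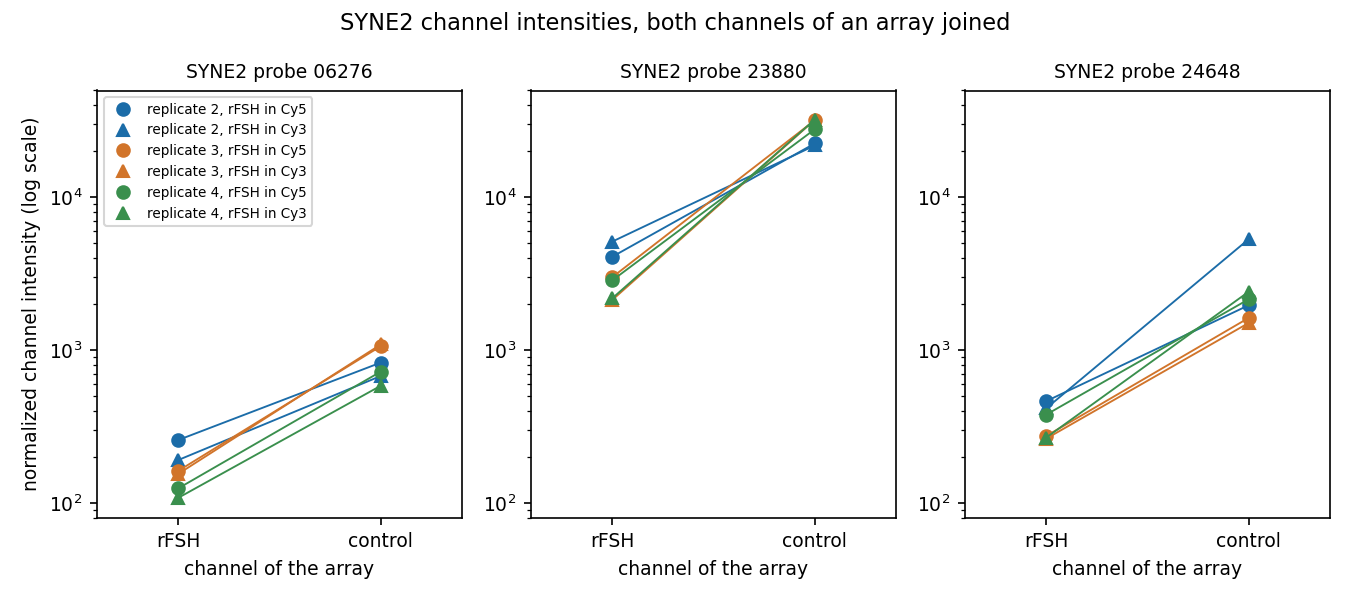
Normalized channel intensity (log scale) of the 3 SYNE2 probes. Each line joins the rFSH and the control channel of 1 array, with colour for the replicate and shape for the dye of rFSH; on all 6 arrays of each probe the rFSH channel is lower, and the 2 channels do not overlap.

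The size of the SYNE2 difference varied between probes and replicates. EMBV3_23880 had replicate ratios of -2.28, -3.66 and -3.59 in replicates 2, 3 and 4, and EMBV3_06276 had -1.76, -2.76 and -2.49. Replicate 2 was nearest to 0 in both. EMBV3_24648 went the other way, with -2.88, -2.54 and -2.84, and its replicate 2 value joins -2.09 with rFSH in Cy5 and -3.68 with rFSH in Cy3. Without the second of these arrays the means were -2.49 for EMBV3_24648, -3.24 for the brightest probe and -2.31 for EMBV3_06276, all still called. Between the brightest probe and EMBV3_06276 the difference in log2 ratio kept its sign in every replicate (-0.52, -0.90 and -1.10), while against EMBV3_24648 it was 0.61, -1.12 and -0.74. Which stretch of the SYNE2 transcripts each probe binds was not known here.

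Of the 12 tested probes, the 3 SYNE2 probes passed an adjusted p of 0.05 as lower in limma (Benjamini-Hochberg over all probes) and none passed as higher. Over all tested probes 3.37% were lower and 2.97% higher by this rule, 6.34% in all. The same 3 probes were the members with 1 sign on all 6 arrays and those whose channels did not overlap, against 21.7% and 9.51% of all tested probes. Since this contrast chose the group, nothing is read from these shares.

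SYNE1, the other giant nesprin, did not share the pattern. Its single probe read 1183 and 1145, 1226 and 1333, and 1629 and 1856 with rFSH in replicates 2, 3 and 4, rFSH in Cy5 first. Control readings were 1310 and 692, 1464 and 1253, and 826 and 741, so the groups overlapped, and the gap between channels was widest in replicate 4. Replicate ratios were 0.29, -0.08 and 1.15, with a mean of 0.45 ± 0.63 (SD, n = 3) and a 95% interval in limma from -0.26 to 1.16. Without the replicate 2 array that carried rFSH in Cy3 its mean ratio was 0.31. The brightest SYNE2 probe minus SYNE1 gave -2.57, -3.58 and -4.74 on the log2 scale in the 3 replicates.

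**Figure D2:**
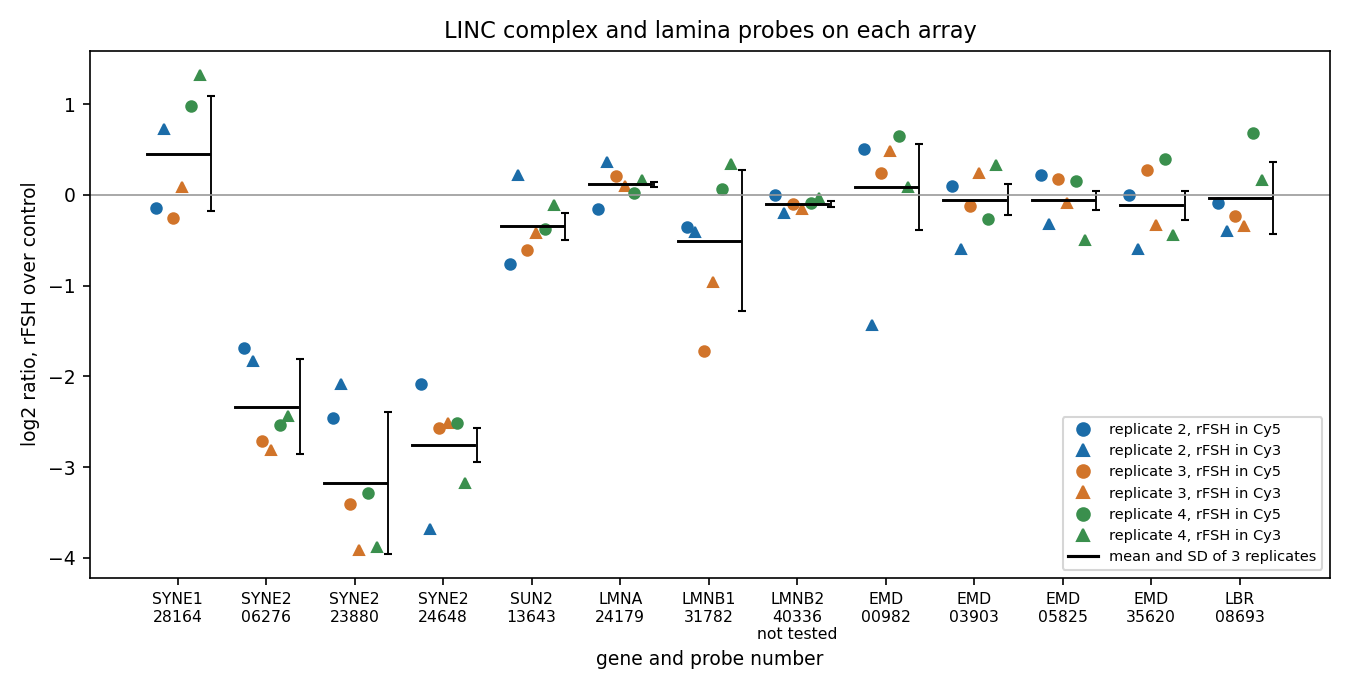
Log2 ratio of rFSH over control for each of the 13 member probes on each of the 6 arrays (colour: replicate; shape: dye of rFSH), with the mean and SD of the 3 replicates. The SYNE2 probes lie between -3.92 and -1.68, and of the other members 1 LMNB1 reading, -1.72, reaches into that range.

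SUN2, the inner membrane partner of the nesprins, had replicate ratios of -0.27, -0.51 and -0.24. Its mean was -0.34 ± 0.15 (SD, n = 3), with a 95% interval from -0.60 to -0.09. Of the 9 tested member probes outside SYNE2 it was the one with an unadjusted p under 0.05 in limma, as 25.3% of all tested probes had, and it did not pass after adjustment over all probes (adjusted p = 0.118). The replicate 2 array that had rFSH in Cy3 gave 0.21 where the other 5 arrays gave -0.76 to -0.11, and without it the mean was -0.51 (limma adjusted p = 0.0928). The probe was dim, at 166 to 187 with rFSH and 161 to 282 in control.

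Of the lamins, LMNA and LMNB2 were dim and LMNB1 was bright. LMNA, the source of lamins A and C, had replicate ratios of 0.10, 0.15 and 0.09, a mean of 0.12 ± 0.03 (SD, n = 3) and a 95% interval from -0.09 to 0.32. The replicate 2 value joins arrays at -0.16 and 0.37, so the small SD understates the spread, and without the array at 0.37 the mean was 0.03. Its readings were low, 164 to 240 with rFSH and 131 to 209 in control. LMNB2, a B-type lamin, was brighter than the negative controls on 2 arrays for rFSH RNA and on 2 for control RNA, and was not tested.

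LMNB1, the other B-type lamin, was bright and disagreed between replicates. With rFSH it read 6406 and 5053 in replicate 2, 2451 and 2211 in replicate 3 and 3962 and 3962 in replicate 4, rFSH in Cy5 first. Control readings on those arrays were 8161 and 6692, 8091 and 4303, and 3783 and 3135. Replicate ratios were -0.38, -1.34 and 0.20. The mean of -0.51 ± 0.78 (SD, n = 3) did not exceed that spread (limma adjusted p = 0.425).

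Emerin and LBR, which join the lamina to the inner membrane, lay near 0. LBR had replicate ratios of -0.24, -0.29 and 0.42 with a mean of -0.04 ± 0.40 (SD, n = 3), on bright signal of 3079 to 5021 with rFSH and 2456 to 6512 in control. In SYNE1, LMNB1 and LBR alike, replicate 4 had the highest and replicate 3 the lowest ratio, so each mean hides unlike replicates. EMD was measured by 4 probes with mean ratios of 0.09, -0.05, -0.06 and -0.12.

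The brightest EMD probe, EMBV3_00982, read 668 to 1016 with rFSH and 449 to 2208 in control. Its ratio was -1.43 on the replicate 2 array with rFSH in Cy3 and 0.08 to 0.65 on the other 5. Without that array its mean was 0.41 in place of 0.09, and neither was called. The 3 dimmer EMD probes stayed between -0.60 and 0.39 on every array.

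Over the 9 tested member probes outside SYNE2, mean ratios lay between -0.51 (LMNB1) and 0.45 (SYNE1), 6 below 0 and 3 above it. Their median was -0.05, beside 0.02 for all tested probes, and adjusted p values in limma lay between 0.118 and 0.928. These misses do not show that the transcripts were equal. The interval of LMNB1 ran from -1.37 to 0.35, and that of LBR from -0.51 to 0.44.

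**Figure D3:**
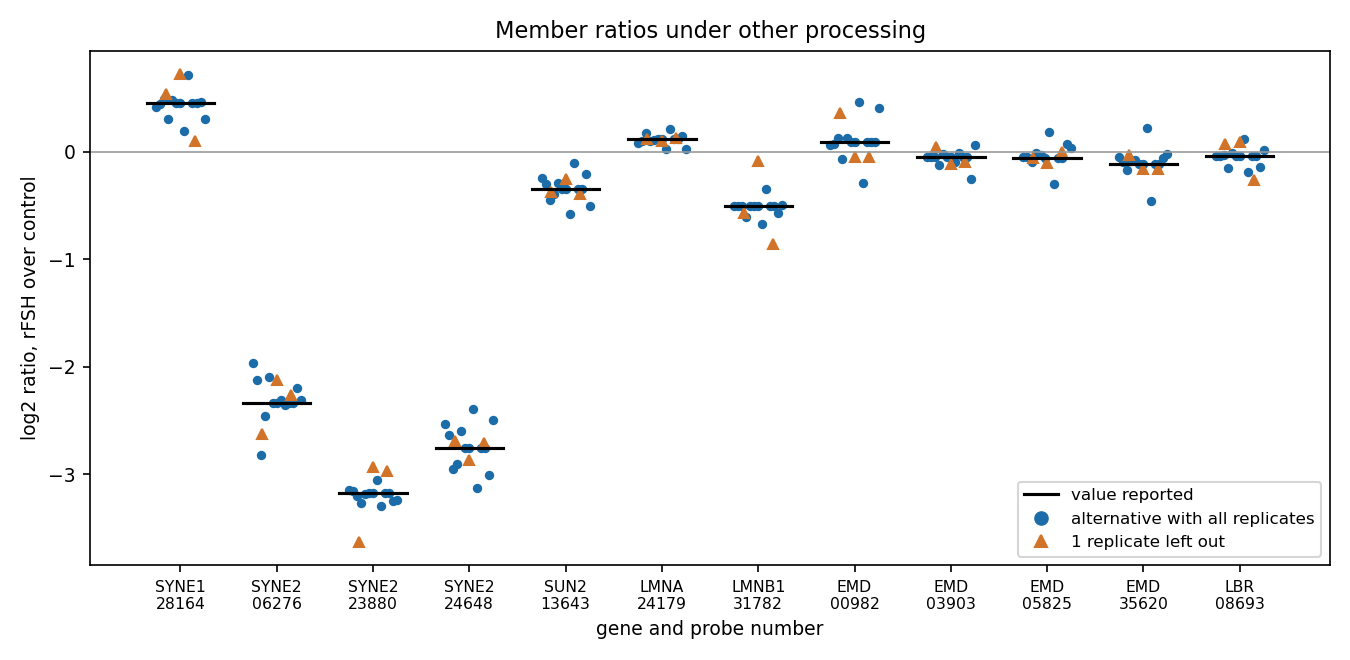
Log2 ratio of rFSH over control of the 12 tested member probes as reported (line), under 13 alternatives that kept all replicates (circles) and with 1 replicate left out (triangles). The SYNE2 probes stay between -3.62 and -1.96, apart from all other members.

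Wider nuclear envelope genes were set beside the members in 5 lists, with 1 probe a gene, the brightest. Of 103 tested genes 3 fell and 4 rose, which is 6.80%, beside 8.73% of the 13130 named genes tested (4.85% lower and 3.88% higher). None of the 103 had a ratio as low as a SYNE2 probe: the lowest was -1.50. SYNE2 was chosen for its low ratio, so nothing is read from this contrast. No list was tested as a set.

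Among 22 partners of the nuclear envelope and lamin processing genes, ZMPSTE24, the protease that trims prelamin A, fell by 0.71 (SD 0.22, n = 3, limma adjusted p = 0.0472), and none rose. Its replicate ratios were -0.52, -0.68 and -0.95. Each joins unlike arrays: -0.07, -0.33 and -0.50 with rFSH in Cy5, and -0.96, -1.03 and -1.39 with rFSH in Cy3. The LEM domain protein LEMD3 had -0.04 and TMPO, which encodes the lamina-associated polypeptide family, had -0.29, neither called. The list's median was -0.05, beside 0.01 for all named genes. The nesprins SYNE3 and SYNE4 had no probe by name, and SUN3 was not bright enough.

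Among 29 nuclear pore genes, NUP62, a subunit of the central channel, rose with 0.79 ± 0.11 (SD, n = 3, limma adjusted p = 0.0306), and none fell by its brightest probe. Of the 3 probes of AHCTF1, a pore assembly factor, the brightest had 0.18 and was not called, and another had -0.61 ± 0.10 and was called lower (limma adjusted p = 0.0394). The list spanned -0.76 (NUP43) to the NUP62 value, with a median of 0.01. Of 20 chromatin partners at the lamina, RB1, the retinoblastoma protein, fell by 0.75 (SD 0.25, n = 3, limma adjusted p = 0.0497), and none rose. Its replicate 2 value joins arrays at -1.11 and -0.44, and its replicate 4 value joins arrays at -0.03 and -0.94. The SD thus understates the spread between arrays. The other RB1 probe had -0.17 and was not called. BANF1, which bridges LEM proteins to DNA, had -0.51 ± 0.70.

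Of 19 motors and linkers that nesprins bind, or relatives of these, 2 rose and none fell. NDEL1, a dynein regulator, had 0.80 ± 0.18 (SD, n = 3, limma adjusted p = 0.0368), and the formin FHOD3 had 0.59 ± 0.04 (limma adjusted p = 0.0361). On single arrays FHOD3 had 0.89, 0.79 and 1.08 with rFSH in Cy5 and 0.39, 0.34 and 0.07 with rFSH in Cy3. Its small SD thus understates the spread between arrays. The list's median was -0.005. The spectrin repeat list, which holds the structural kin of nesprins, had 13 tested genes, of which MACF1 fell and TRIO rose.

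MACF1, a giant linker of actin and microtubules, had replicate ratios of -1.11, -1.84 and -1.55 and a mean of -1.50 ± 0.37 (SD, n = 3, limma adjusted p = 0.0303). Its 3 tested probes ranged from -1.58 to -0.36, and 1 of them was called. TRIO had 1.25 ± 0.43 (limma adjusted p = 0.0430). DST, the close relative of MACF1, had 0.80 ± 0.34 and was not called (limma adjusted p = 0.0625). The alternatives that kept all replicates left the calls of MACF1 and NDEL1 in 13 of 13, NUP62 in 12, FHOD3 in 10, TRIO in 9, ZMPSTE24 in 8 and RB1 in 7. Without replicate 2 or without replicate 3 no probe was called in limma, and without replicate 4 only MACF1 and TRIO of the 7 were.

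**Figure D4:**
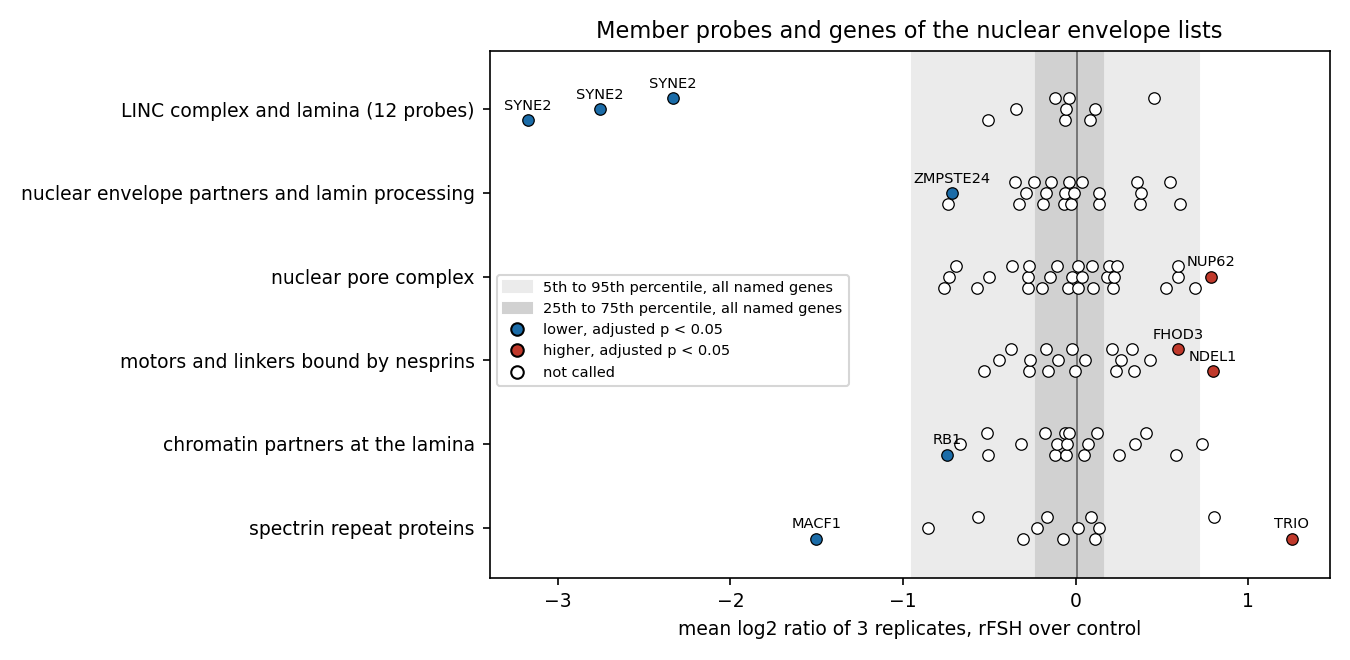
Mean log2 ratio of rFSH over control for the 12 tested member probes and the genes of the 5 lists, filled where called in limma. Grey bands are percentiles of all 13130 named genes. The 3 SYNE2 probes, of a gene chosen for its low ratio, lie left of every gene of the lists, and MACF1 at -1.50 is the nearest.

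The genes whose 6 array ratios came nearest to those of the brightest SYNE2 probe, by Euclidean distance among 13055 other named genes, were SEMA6D (distance 1.11), PARP9 (1.54), HERC5 (1.66), GATM (1.67) and MSRB3 (1.69). The median distance was 8.01. The other SYNE2 probes lay farther off than these, at 2.24 and 2.54. SEMA6D, a transmembrane semaphorin, had a mean ratio of -3.32 ± 0.39 (SD, n = 3), and its other probe had -2.12. PARP9, of the ADP-ribosyltransferase family, had -2.86 ± 0.15 and HERC5, an interferon-induced ligase for ISG15, -2.75 ± 0.72. GATM, a creatine synthesis enzyme, had -2.61 ± 0.66 and MSRB3, a methionine sulfoxide reductase, -2.68 ± 0.43, with its 3 probes reaching up to -0.35. The distance joins size and pattern over arrays, and likeness of pattern alone was not measured. The likeness is a description.

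**Figure D5:**
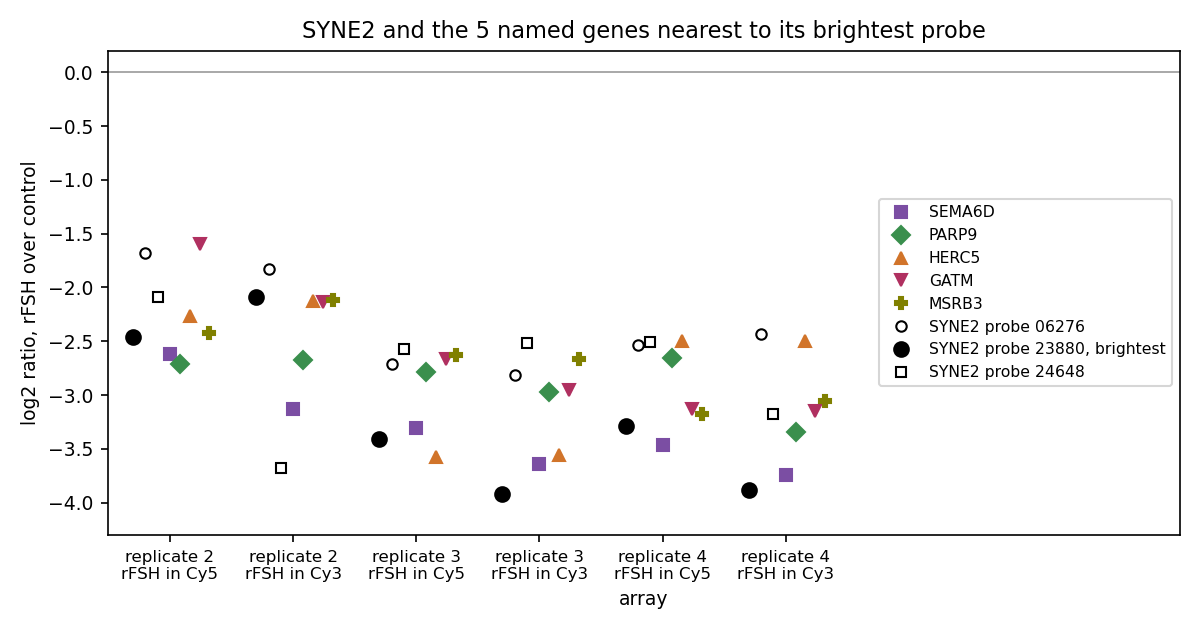
Log2 ratio of rFSH over control on each of the 6 arrays for the 3 SYNE2 probes (black) and the 5 nearest named genes (colour), shifted sideways for legibility. All values lie below -1.5, and the replicate 2 value of probe EMBV3_24648 with rFSH in Cy3 (-3.68) stands lowest on its array.

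Markers were read beside SYNE2 because cumulus preparations can carry other cells. Their calls stand beside 8.73% of all named genes called, 4.85% lower and 3.88% higher. The cumulus and granulosa markers FSHR and AMH were detected above the negative controls on all 6 arrays in both groups. FOXL2 was detected on 4 arrays in each group, and CYP19A1 on 6 with rFSH and 5 in control. The remaining tested markers of this kind were detected on all 6 in both groups, and AMHR2 was not bright enough to be tested. Of 11 tested markers of this kind CYP11A1 rose and FSHR fell, and their summed intensity was 103152 to 105114 with rFSH and 91627 to 98699 in control. That sum is mostly INHA and INHBA, the inhibin subunits, and hides unlike members. INHBA control readings in replicates 3 and 4 were 11594 and 10612 with rFSH in Cy5, but 38508 and 35785 with rFSH in Cy3. AMH had 1.44 ± 0.86, while GATA4 had -1.40 ± 0.61, FST -1.17 ± 0.71 and HSD3B1 -1.10 ± 0.61. None of these was called, but each had 1 sign on all 6 arrays, as 21.7% of all tested probes had. Of 12 theca and stroma markers 3 fell along with SYNE2, namely ACTA2 (-1.29 ± 0.49), CNN1 (-1.53 ± 0.43; SD, n = 3 each) and MYH11, all smooth muscle genes. TAGLN, another smooth muscle gene, had -0.06 ± 0.06 on dim signal, and the stromal receptor PDGFRA had 0.62 ± 0.30, higher on all 6 arrays but not called. Their list summed to 16354 to 27349 with rFSH and 25167 to 33372 in control, and MYH11 was the tested marker not above the negative controls for rFSH RNA on any array, so its ratio has only a bound. CYP17A1, the androgen enzyme of theca cells, had 0.05 ± 0.05 on dim signal, and the collagen COL1A1 had -0.03 ± 0.63. The part of these cells in the SYNE2 ratio was not tested.

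Of 14 tested oocyte markers none was called in limma. None had an unadjusted p under 0.05, beside 25.3% of all tested probes, but the replicates of these markers disagreed. Ratios were above 0 in replicate 2 and below 0 in replicate 3 for 10 of the 14. The zona pellucida gene ZP2 had 1.46, -3.14 and 0.22 in replicates 2, 3 and 4, and ZAR1 had 1.46, -2.67 and 0.15. In the same replicate order the brightest SYNE2 probe had -2.28, -3.66 and -3.59. EMBV3_24648 had -2.88, -2.54 and -2.84, and EMBV3_06276 had -1.76, -2.76 and -2.49. The part of oocyte RNA in the SYNE2 ratio was not tested. The oocyte markers summed to 2219 to 6068 with rFSH and 2020 to 6059 in control, and GDF9 was not bright enough to be tested. None of 10 blood and endothelium markers was called in limma, 2 had an unadjusted p under 0.05, and the leukocyte gene PTPRC had 0.09 ± 0.01 (SD, n = 3). PTPRC read 1733 to 2342 on the replicate 4 arrays and 128 to 156 on the others, in both groups. The macrophage gene CD68 had 1.30 ± 0.98 and the endothelial VWF 0.59 ± 0.25, both higher on all 6 arrays but not called, and KDR had 0.75 ± 0.96. Of all tested probes, 21.7% had 1 sign on all 6 arrays. Their sum was 2239 to 5189 with rFSH and 1751 to 3434 in control.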

How the data were processed

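Per the file headers, the deposited scanner files give linear intensity of each spot and its background in Cy3 (532 nm) and Cy5 (635 nm), and mark ignored spots (another value, 0 or 1). The authors also deposited normalized log2 ratios in a pair of tables that were identical for all bovine probes. By comparison with the scanner signals they were log2 Cy5/Cy3 in one direction on every array (r from 0.976 to 0.992; medians by column -0.0202 to 0.00122). Their normalization method was not stated in the labels or headers.

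In limma 3.58.1 (R 4.3.3), mean spot signal was background-corrected by normexp with offset 50 on median background, then loess-normalized (span 0.3) with control and ignored spots set aside. A probe was tested if its raw signal passed a floor, the mean of 153 negative controls plus 2 SD, in 3 or more arrays for rFSH or for control RNA, which left 34821. Ratios were turned by the dye labels, averaged per replicate and tested against 0 (lmFit, eBayes, Benjamini-Hochberg, threshold 0.05). With 3 replicates, whose separate origin is given as biological but tied to no animal, p-values measure the spread between these samples, and their number limits the precision. Channel intensities followed Aquantile normalization. The ratio lies within a replicate number. Deviations of rFSH and control channels of 1 number correlated at 0.396, 0.511 and 0.685. Both channels of a number come from the same arrays, so these values cannot tell whether their RNAs share an origin.

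Gene symbols were those of an old platform annotation: 21790 probes had 1 symbol, 0 had several and 22004 were unnamed; 20025 symbols were current in RefSeq, 1524 were updated through synonyms and 241 matched neither. Members and lists were chosen with earlier results of these data known. Named genes were the members, up to 4 called genes per list, the 5 nearest to SYNE2, and FSHR, GDF9, CYP17A1 and PTPRC. Other list genes and markers named were chosen after their values were seen. The steps were tested on simulated data. Alternatives covered background, offset, normalization, filter, arrays, pairing, replicates and pixel statistic; 1 of them, which omits the Cy3-labelled rFSH array of replicate 2, was chosen after seeing the data.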

Additional observations from a re-analysis of the deposited data

Results flagged for a closer look

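For 28 probes named in the text, the 3 arrays with rFSH in Cy5 were set against the 3 with rFSH in Cy3. In 2 of them every array of one dye orientation had a ratio of opposite sign to every array of the other. The EMD probe EMBV3_05825 averaged 0.186 with rFSH in Cy5 (0.158 to 0.221) and -0.304 with rFSH in Cy3 (-0.495 to -0.0954). CYP17A1 averaged -0.199 with rFSH in Cy5 (-0.234 to -0.134) and 0.306 with rFSH in Cy3 (0.228 to 0.364). Both probes were dim, and the difference between orientations was not tested.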

How the results depend on the processing

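No result changed its direction under any of the 16 alternatives where it was called. Each SYNE2 probe was called lower under all 13 alternatives that kept all replicates: ratios ran from -3.30 to -3.05 for the brightest (limma adjusted p from 0.000491 to 0.0468), -3.12 to -2.39 for EMBV3_24648 and -2.82 to -1.96 for EMBV3_06276. Leaving out 1 replicate gave -3.62 to -2.93 for the brightest and 0 to 3 called member probes. Without replicate 2 or without replicate 3 none was called (limma adjusted p = 0.136 and 0.0803 for the brightest), while 6874 and 7399 probes had an unadjusted p under 0.05. The sign of uncalled EMD and LBR ratios varied between alternatives. Outside SYNE2, SUN2 was called with only arrays with rFSH in Cy5 (-0.58, limma adjusted p = 0.0481), against -0.10 with rFSH in Cy3.

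Counts of all probes higher and lower often moved by over 1.5 times, for causes not tested. Skipping background correction gave 570 and 482. The counts were 468 and 558 with no replicate block and unpaired channels, and 2674 and 3381 with a random replicate block (estimated correlation -0.389). They were 1565 and 1833 with only rFSH in Cy5, and 1581 higher with only rFSH in Cy3. Lower probes alone were 714 with plain subtraction, 1863 with offset 0 and 1848 with median centring. Leaving out 1 replicate gave 0 to 510 higher and 0 to 675 lower. The share of called probes that were higher was 46.9% here, 54.2% without background correction and 29.6% with median centring.

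List counts are small and moved easily. Envelope partners had 0 called without background correction, with plain subtraction, with only rFSH in Cy5, with median pixels and without the replicate 2 array with rFSH in Cy3, and 2 with the random replicate block. Nuclear pore genes had 0 unpaired, 7 with the random block and 2 without that array. Motors and linkers had 1 unpaired and with median pixels, and 5 with the random block. Chromatin partners had 0 without background correction, with subtraction, with the authors' ratios, without a filter and unpaired. They had 5 with the random block, and 2 with offset 0, median centring, detection on all 6 arrays, either orientation alone, median pixels and without that array. Spectrin repeat genes had 1 without background correction, with subtraction, with median centring and unpaired, and 4 with the random block. Leaving out 1 replicate gave 0 for envelope partners, motors and chromatin partners, 0 to 1 for pore genes and 0 to 2 for spectrin repeat genes.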

Other observations

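Genes that neighbour SYNE2 in the order of protein-coding genes on the ARS-UCD2.0 assembly were looked up after the data were seen, 3 on each side. Of these 6 genes 5 were tested, and all 5 had ratios below 0, as 48.8% of all named genes did. None was called in limma. SGPP1, a sphingosine phosphate phosphatase, had -1.50 ± 0.63 (SD, n = 3, limma adjusted p = 0.0534), MTHFD1, a folate enzyme, had -0.66 ± 0.46, and ESR2, the estrogen receptor beta next to SYNE2, had -0.44 ± 0.15 (limma adjusted p = 0.0757). WDR89 had -0.71 ± 0.57 and LOC100297513 had -0.41 ± 0.14. Among neighbours of the other members, taken in the same way, 3 of 32 tested genes were called, which is 9.38%, beside 8.73% of all named genes: VIP near SYNE1 higher, and PDGFA near SUN1 and CNIH3 near LBR lower.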
